A study of Mus musculus with 6 samples.

Results

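Genes of glycolysis and of the hypoxia response were followed in mouse lung fibroblasts with and without the transcription factor ATF4. The set was a fixed list of 35 genes, of which 32 had at least 1 transcript cluster (the probe group that the array summarises as 1 value) assigned to that gene alone, among 30738 genes named in this way on the array. The brightest such cluster stood for each gene. Gapdh was read only by clusters shared with other genes, and Eno1 and Gpi1 were named on no cluster of the annotation used here. Expression was measured on Clariom D arrays in cultured cells at passage 2, with 3 biological replicates labelled Atf4wt/wt (LFBwt/wt) and 3 labelled Atf4D/D (LFBD/D). Both groups came from C57BL/6 mice carrying the tamoxifen-inducible Rosa26::CreERT2 recombinase, with wild-type Atf4 alleles in LFBwt/wt and with alleles whose exons 2 and 3 lie between loxP sites in LFBD/D. Mice of both genotypes received tamoxifen, and 4-hydroxytamoxifen was also in the medium of both cultures, together with serum, non-essential amino acids and beta-mercaptoethanol. Lungs of males and females, 8 to 10 weeks old, were digested with the tissue of 4 mice pooled. The recombinase is not restricted to fibroblasts, and no sort for fibroblasts is described for these cultures. Whether the replicates of a genotype came from separate digests is not given in the sources used here, so that p-values measure the spread between these arrays.

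Glycolysis splits glucose into pyruvate. Its preparatory enzymes spend ATP to phosphorylate the sugar and cut it into trioses, its payoff enzymes recover ATP, and lactate dehydrogenase turns pyruvate into lactate, which leaves the cell through monocarboxylate carriers. Under low oxygen the hypoxia-inducible factors (HIF) switch on most of these genes. Prolyl hydroxylases of the Egln family mark the HIF alpha subunits for destruction when oxygen is present, and fibroblasts in wounds and tumours are known for high glycolytic activity. ATF4 is the effector of the integrated stress response and shares some target genes with HIF.

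Atf4 itself had log2 values of 8.67, 8.95 and 8.73 in LFBwt/wt and 7.73, 7.49 and 7.48 in LFBD/D, and fell by 1.22 ± 0.10 (s.e.) on the log2 scale (adjusted p = 0.0004971), the direction that the labels give. Where its probes lie relative to the deleted exons is not given in the sources used here. Leukocyte, mesothelial and endothelial markers included genes that differed between genotypes, while of 7 epithelial markers 1 (Cdh1) was higher and 6 did not pass (median log2 difference -0.02). Of 23 measured leukocyte markers 19 were higher in LFBD/D and 0 lower, with a median log2 difference of 2.66, and their summed level lay between 17.22 and 17.84 in LFBwt/wt and between 19.36 and 19.66 in LFBD/D. The lymphocyte markers Cd3e, Ms4a1 and Nkg7 stayed between 3.82 and 4.70 on every array, below the median cluster at 4.90. Of 9 mesothelial markers 8 were lower and 1 (Krt19) higher, with summed levels of 12.93 to 13.56 in LFBwt/wt and 9.16 to 9.60 in LFBD/D. Of 9 measured fibroblast markers 5 passed as lower (Col1a1, Col1a2, Col3a1, Pdgfrb and Thy1) and 0 as higher. Of those that did not pass, Dcn and Vim were higher without overlap, by 0.18 (adjusted p = 0.0867) and 0.21 (adjusted p = 0.03455), below 1.5-fold. Fn1 was lower without overlap, by 0.55 (adjusted p = 0.005133), also below 1.5-fold. Lum differed by -0.45 with overlapping groups (adjusted p = 0.164). The summed fibroblast level was 19.52 to 19.67 in LFBwt/wt and 18.85 to 18.87 in LFBD/D. Of all named genes 3.88% were higher and 2.94% lower by the same thresholds. In such bulk cultures, fewer cells of a type and less RNA per cell cannot be told apart, and the part of these shifts in the results on glycolysis and hypoxia genes was not tested.

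Glycolysis and hypoxia genes changed about as often as the brighter genes at large, and like those in both directions. A gene passed when limma gave an adjusted p of at most 0.05 over all clusters and the fold change was above 1.5. Epas1 and Pfkfb4 were higher in LFBD/D, 2 of 32 genes (6.25%) against 3.88% of all named genes. Slc16a1, Eno2 and Ldhb were lower, 3 of 32 (9.38%) against 2.94%. Since all members were brighter than the median cluster, the nearer comparison is with the named genes at or above it. Of these 11.2% passed in either direction (6.38% as higher and 4.84% as lower), against 15.6% of the members. On the adjusted p alone 9 members passed (28.1%), against 18.1% of all named genes and 28.9% of those at or above the median cluster. The arrays of the 2 genotypes did not overlap for 14 members (43.8%), of which 6 were higher and 8 lower in LFBD/D, against 37.5% and 50.9%. By each of these counts the set lay near the brighter genes at large. The median log2 difference was 0.04 over the members and 0.02 over all named genes. For 21 of the 27 members that did not pass, the 95% confidence interval of the difference lay wholly inside 1.5-fold in either direction. Over all members this held for 21 of 32, a smaller share than among genes at large. It held for 26033 of 30738 named genes and for 13932 of the 18537 at or above the median cluster. Student's t-test left 0 members after Benjamini-Hochberg adjustment (12 had an unadjusted p under 0.05, 5 of them with a fold above 1.5). The study's methods name this test for 2 groups in general, but name no test for the arrays. Limma's treat, which tests against a fold of 1.5, also left 0 (1 had an unadjusted p under 0.05).

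**Figure D1:**
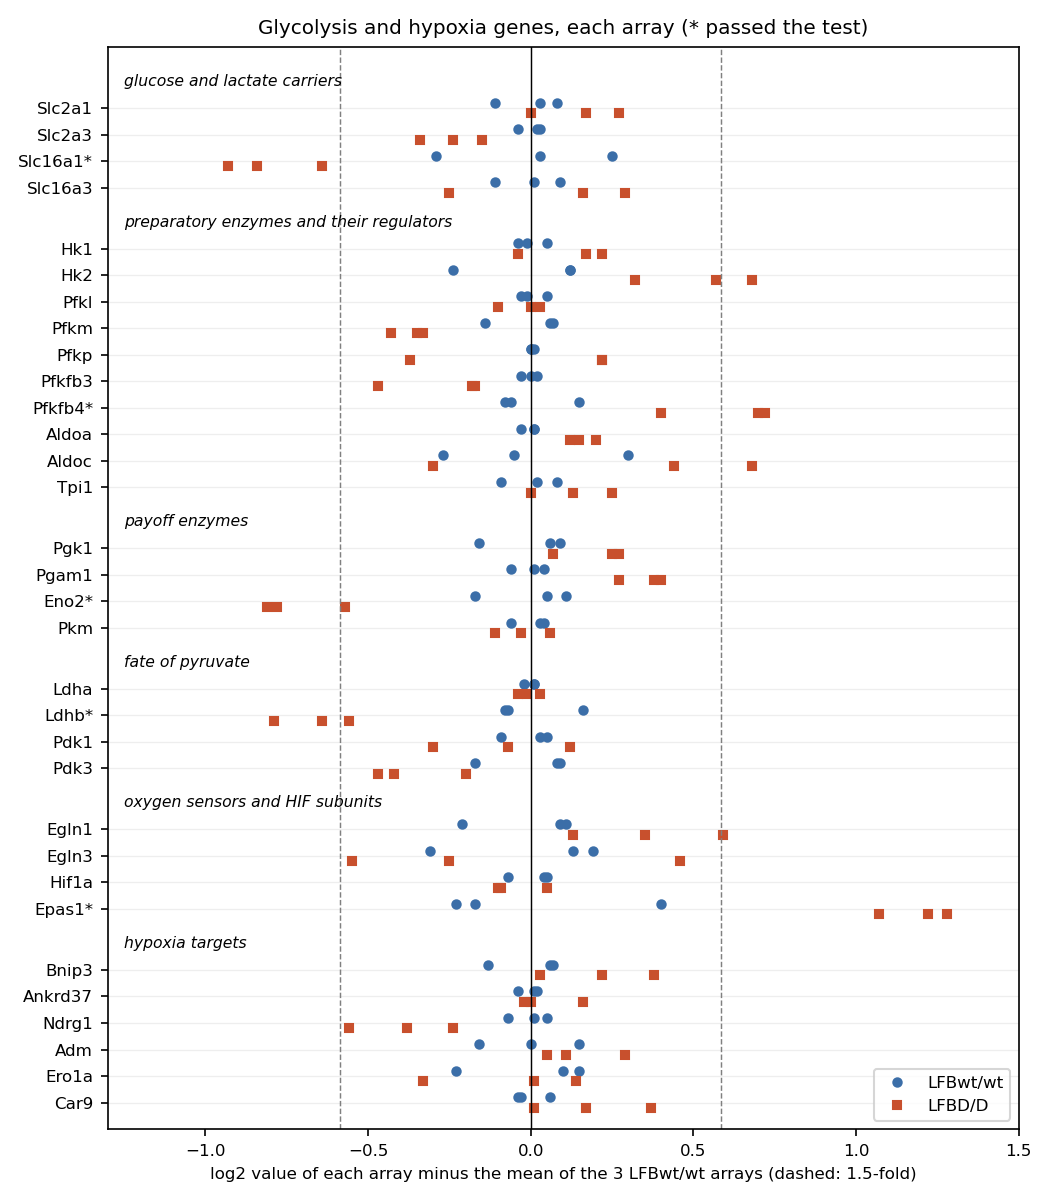
Each row is a gene, grouped by role. Points are the log2 values of single arrays minus the mean of the 3 LFBwt/wt arrays (circles LFBwt/wt, squares LFBD/D), with 1.5-fold marked by dashed lines and genes that passed by an asterisk. Epas1 and Pfkfb4 lie to the right and Slc16a1, Eno2 and Ldhb to the left, while Ldha, Pkm, Pfkl and Hif1a stay near 0.

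Promoter windows of the genes that passed are shown because 4 of the 5 had a window in the table used, and that of Ldha because Ldha had a log2 difference of 0.00 beside its partner Ldhb. Each runs 5′ to 3′ on the gene's strand, from 250 bases before the start site to 50 after it (RefSeq, GRCm38.p6). Capitals mark the cores ACGTG and GCGTG, the 2 forms of the HIF-binding core, on either strand, where a CACGTG counts as 2 overlapping ACGTG matches.
Pfkfb4 (chr9:108991652-108991951, plus strand): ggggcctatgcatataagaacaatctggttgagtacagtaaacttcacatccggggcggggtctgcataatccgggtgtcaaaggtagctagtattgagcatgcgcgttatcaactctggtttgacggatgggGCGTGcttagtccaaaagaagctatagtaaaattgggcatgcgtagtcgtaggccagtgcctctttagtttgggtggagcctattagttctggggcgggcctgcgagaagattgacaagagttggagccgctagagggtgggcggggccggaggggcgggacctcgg
Eno2 (chr6:124769624-124769923, minus strand): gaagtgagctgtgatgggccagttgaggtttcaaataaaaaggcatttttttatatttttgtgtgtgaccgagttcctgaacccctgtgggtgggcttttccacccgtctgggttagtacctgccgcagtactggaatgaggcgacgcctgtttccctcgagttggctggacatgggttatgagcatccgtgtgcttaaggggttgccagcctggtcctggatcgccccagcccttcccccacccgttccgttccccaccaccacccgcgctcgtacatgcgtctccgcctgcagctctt
Slc16a1 (chr3:104638414-104638713, plus strand): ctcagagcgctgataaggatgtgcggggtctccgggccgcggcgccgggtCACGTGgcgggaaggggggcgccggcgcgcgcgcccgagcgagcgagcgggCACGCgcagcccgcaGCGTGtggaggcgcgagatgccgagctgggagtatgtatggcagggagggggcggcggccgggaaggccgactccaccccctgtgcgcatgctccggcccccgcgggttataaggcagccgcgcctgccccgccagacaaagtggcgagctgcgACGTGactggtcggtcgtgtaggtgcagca
Ldhb (chr6:142507908-142508207, minus strand): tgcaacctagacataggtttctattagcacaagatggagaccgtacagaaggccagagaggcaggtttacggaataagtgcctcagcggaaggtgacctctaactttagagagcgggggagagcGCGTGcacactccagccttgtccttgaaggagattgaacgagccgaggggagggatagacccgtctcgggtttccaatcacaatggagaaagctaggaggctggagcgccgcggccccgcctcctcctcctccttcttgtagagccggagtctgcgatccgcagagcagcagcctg
Ldha (chr7:46845554-46845853, plus strand): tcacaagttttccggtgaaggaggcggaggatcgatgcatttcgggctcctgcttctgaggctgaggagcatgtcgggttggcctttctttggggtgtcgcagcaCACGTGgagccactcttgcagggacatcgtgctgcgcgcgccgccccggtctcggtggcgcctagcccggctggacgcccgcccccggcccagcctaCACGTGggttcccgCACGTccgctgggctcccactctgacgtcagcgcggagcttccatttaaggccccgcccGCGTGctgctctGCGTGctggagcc
The window of Ldha held 7 core matches, and a second start site of Ldha, not printed, had 2. Slc16a1, which was lower in LFBD/D, held 5. Pfkfb4, which was higher, and Ldhb, which was lower, held 1 GCGTG each, and Eno2 held 0. Across all members 29 genes had 40 windows. ACGTG was in 24 of these (60.0%) against 19.6% of the 32851 windows of the table, GCGTG in 22 (55.0%) against 32.4%, and at least 1 of them in 33 (82.5%) against 43.8%. The motif TGATGNAA, a form that ATF4 is known to bind, was in 0 of the 40 windows and in 3.97% of all windows, on either strand. These are matches of letters in a short window, with no correction for base composition. Epas1, Slc2a3 and Ndrg1 had no window in the table.

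Among the carriers of glucose and lactate, 1 of 4 passed. Slc16a1 (MCT1) moves lactate and pyruvate with protons across the plasma membrane. Its log2 values were 11.98, 11.76 and 11.44 in LFBwt/wt and 11.09, 10.80 and 10.89 in LFBD/D. Every LFBD/D array lay below every LFBwt/wt array, and the gap was narrowed by replicate 3 of LFBwt/wt. Slc16a1 fell by 0.80 ± 0.14 (s.e.) on the log2 scale, a 1.745-fold decrease (adjusted p = 0.01). Slc16a3 (MCT4), the carrier associated with lactate export from glycolytic cells, measured 9.97, 9.89 and 9.77 against 10.17, 9.63 and 10.04, with overlapping groups and a log2 difference of 0.07 (adjusted p = 0.8264). The glucose carrier Slc2a1 (GLUT1) was, with Pgk1, Pkm and Adm, among the 4 members with a mean over all arrays above 16, where the deposited scale exceeds that of a 16-bit scanner, and its difference was 0.15 ± 0.09 (adjusted p = 0.3638). Slc2a3 (GLUT3), a carrier with high affinity for glucose, had values of 7.54, 7.53 and 7.47 against 7.27, 7.17 and 7.36. Its groups did not overlap, but the difference of -0.25 was below 1.5-fold and its adjusted p was 0.05034.

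In the preparatory phase 1 of 10 genes passed. Pfkfb4 belongs to the bifunctional enzymes that make and break the allosteric activator of phosphofructokinase. Its values were 7.49, 7.28 and 7.26 in LFBwt/wt and 8.04, 7.74 and 8.06 in LFBD/D. No LFBD/D array came down to the LFBwt/wt range, and replicate 2 was the lowest of its group. The rise was 0.60 ± 0.10, or 1.519-fold (adjusted p = 0.009727), just past the fold threshold. It ended as a call without LFBwt/wt replicate 2 (0.57) or 3 (0.56) and without LFBD/D replicate 1 (0.56) or 3 (0.55), in each case by the fold. Its relative Pfkfb3, of which the protein mainly makes the activator, had 10.97, 10.94 and 10.99 against 10.50, 10.80 and 10.79, a difference of -0.27 ± 0.09 (adjusted p = 0.1034).

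Hexokinase traps glucose in the cell as glucose phosphate. Hk2, the form induced by insulin and by HIF, measured 12.06, 12.06 and 11.70 in LFBwt/wt and 12.62, 12.26 and 12.51 in LFBD/D. The groups did not overlap, and Hk2 differed by 0.52 ± 0.13 (adjusted p = 0.03667), which at 1.437-fold did not pass. Without LFBD/D replicate 2 it did (0.62, adjusted p = 0.02533). Hk1, the form of most tissues, showed 10.06, 10.00 and 9.97 against 10.18, 9.97 and 10.23, a difference of 0.11 (adjusted p = 0.4679).

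Phosphofructokinase is the main control point of the pathway and has 3 isoforms. Pfkm, the muscle form, had values of 10.53, 10.33 and 10.54 in LFBwt/wt and 10.14, 10.04 and 10.12 in LFBD/D, a difference of -0.37 ± 0.07 (adjusted p = 0.01688) that remained under 1.5-fold. Pfkl, the liver form, differed by -0.03 ± 0.06, with a 95% confidence interval from -0.17 to 0.11. Pfkp, the platelet form, was nearly the same on the 3 LFBwt/wt arrays (9.79, 9.78 and 9.78) and spread from 9.41 to 10.00 in LFBD/D, where replicate 2 was the low array. Aldoa and Aldoc are aldolases, which cut the sugar into trioses, and Tpi1 interconverts the trioses. Aldoa differed by 0.16 ± 0.05, without overlap between groups (adjusted p = 0.1067). Aldoc varied most among these enzymes, between 7.84 and 8.41 in LFBwt/wt and between 7.81 and 8.79 in LFBD/D. Tpi1 differed by 0.13 (adjusted p = 0.4215).

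In the payoff phase 1 of 4 genes passed, and it was the enolase known from neurons. Eno2 measured 9.01, 8.79 and 9.07 in LFBwt/wt and 8.39, 8.18 and 8.15 in LFBD/D. The highest LFBD/D array was 0.40 below the lowest LFBwt/wt array. Eno2 fell by 0.72 ± 0.10, a 1.645-fold decrease (adjusted p = 0.00363). The ubiquitous enolase Eno1 could not be set beside it for want of a cluster. Pgam1, phosphoglycerate mutase, gave 14.68, 14.65 and 14.58 against 15.04, 14.91 and 15.02. Its groups were separated, with a difference of 0.35 ± 0.06 (adjusted p = 0.009508), which is 1.279-fold and so did not pass. A pair of further clusters that name Pgam1 together with a related sequence differed by 0.43 (adjusted p = 0.004063) and 0.38 (adjusted p = 0.02343).

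Pkm (pyruvate kinase of muscle and most proliferating cells) differed by -0.03 ± 0.06, with a confidence interval from -0.18 to 0.12. Pgk1 (phosphoglycerate kinase) differed by 0.19 ± 0.09 (adjusted p = 0.2322). The identifier of its brightest cluster carries chromosome 12, where the related sequence Pgk1-rs7 lies, while Pgk1 lies on chromosome X. The cluster on X gave 0.15 ± 0.07 (adjusted p = 0.2364). Gapdh shares its clusters with pseudogenes, and those clusters differed by -0.04 (adjusted p = 0.701) and 0.07 (adjusted p = 0.5315).

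At the fate of pyruvate, 1 of 4 genes passed, the lactate dehydrogenase subunit Ldhb. Ldha, the subunit favouring lactate production, had values of 15.00, 15.00 and 14.97 in LFBwt/wt and 15.02, 14.95 and 14.98 in LFBD/D. The groups lay on top of each other, with a confidence interval of the difference from -0.12 to 0.12. Ldhb, the subunit abundant in heart, had 9.27, 9.26 and 9.50 against 8.70, 8.78 and 8.55. The groups were apart by more than the range within either. Ldhb fell by 0.67 ± 0.09, a 1.589-fold decrease (adjusted p = 0.003652). Pdk1 and Pdk3 are kinases that shut pyruvate dehydrogenase and so keep pyruvate out of mitochondria. Pdk3 gave 10.57, 10.58 and 10.32 against 10.07, 10.02 and 10.29, separated by little, with a difference of -0.36 ± 0.10 (adjusted p = 0.056). Pdk1 differed by -0.08 ± 0.11 (adjusted p = 0.7243).

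Of the oxygen sensors and HIF subunits, Epas1 passed. Epas1 encodes the alpha subunit of HIF-2 and is known for high expression in endothelium and lung. Its values were 7.53, 6.90 and 6.96 in LFBwt/wt and 8.20, 8.35 and 8.41 in LFBD/D. Replicate 1 of LFBwt/wt was the nearest to the LFBD/D arrays and still lay below all of them. The rise was 1.19 ± 0.16, or 2.283-fold (adjusted p = 0.003658), the largest change among the measured members. All 6 endothelial markers had groups without overlap, higher in LFBD/D. In either direction this held for 37.5% of all named genes and 50.9% of those at or above the median cluster. Of the 6 markers 2 (Pecam1 and Vwf) passed (33.3%, against 11.2% of the named genes at or above the median cluster). Kdr, Tek and Tie1 differed by 0.18, 0.16 and 0.15, each with an adjusted p above 0.05. The summed level of the 6 markers was 8.08 to 8.43 in LFBwt/wt and 8.73 to 9.23 in LFBD/D. Cdh5, the cadherin of endothelial junctions, had the largest difference of the 6, with 6.10, 6.70 and 7.06 against 7.35, 8.34 and 7.57 (1.13, adjusted p = 0.05341). Tek was the only endothelial marker below the median cluster on all arrays. The leukocyte markers described above differed by more, with a median log2 difference of 2.66. The part of endothelial cells, leukocytes or any other cell type in the Epas1 values was not tested.

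Hif1a, the alpha subunit of HIF-1, stayed level, at 15.75, 15.74 and 15.63 against 15.60, 15.61 and 15.75 (difference -0.05 ± 0.07). HIF alpha subunits are regulated mostly through protein stability, which the arrays do not measure. Egln1, the main prolyl hydroxylase that marks HIF for destruction, gave 13.85, 13.83 and 13.53 against 14.09, 13.87 and 14.33. Its groups did not overlap, but the margin was 0.03 and the adjusted p was 0.1425. Egln3, a hydroxylase that is itself a HIF target, had the widest spread of the members in LFBD/D, with 10.51, 10.81 and 11.52 (SD 0.52), against 11.19, 11.25 and 10.75 in LFBwt/wt.

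None of the 6 hypoxia targets passed, and 5 of them differed by 0.21 or less on the log2 scale. Ndrg1, a stress-responsive gene, was the exception at 12.07, 12.19 and 12.15 in LFBwt/wt and 11.58, 11.90 and 11.76 in LFBD/D. Its difference was -0.39 ± 0.09 (adjusted p = 0.02617), below 1.5-fold. The others did not have separated groups. Bnip3, a mediator of mitophagy, differed by 0.21 (adjusted p = 0.2598), Adm, the vasodilator peptide adrenomedullin, by 0.15 (adjusted p = 0.4154), and Ero1a, the oxidase that drives disulphide formation in the endoplasmic reticulum, by -0.06 (adjusted p = 0.8498). Car9, a carbonic anhydrase used as a hypoxia marker, lay at 5.68 to 5.78 in LFBwt/wt and 5.73 to 6.09 in LFBD/D, and Ankrd37 differed by 0.05 (adjusted p = 0.7232).

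Related genes were also compared within each array, by subtracting the log2 value of one from that of its relative. Of 12 measurable pairs 9 had groups without overlap, and each of the 9 held at least 1 gene whose groups were already apart on its own, as 50.9% of the named genes at or above the median cluster were. No such share was computed for pairs. With 3 arrays against 3 the smallest two-sided p of the exact permutation test is 0.1, which all 9 reached, and after adjustment over the 12 pairs it was 0.1333, so that no pair could pass. The change was -1.24 for Hif1a minus Epas1, -0.87 for both Pfkfb3 minus Pfkfb4 and Slc16a1 minus Slc16a3, and 0.66 for Ldha minus Ldhb. Hk1 minus Hk2 changed by -0.41, Egln1 minus Egln3 by 0.48, Slc2a1 minus Slc2a3 by 0.39, Pfkl minus Pfkm by 0.34 and Pdk1 minus Pdk3 by 0.28. The pairs Pfkl and Pfkp, Pfkm and Pfkp, and Aldoa and Aldoc overlapped.

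**Figure D2:**
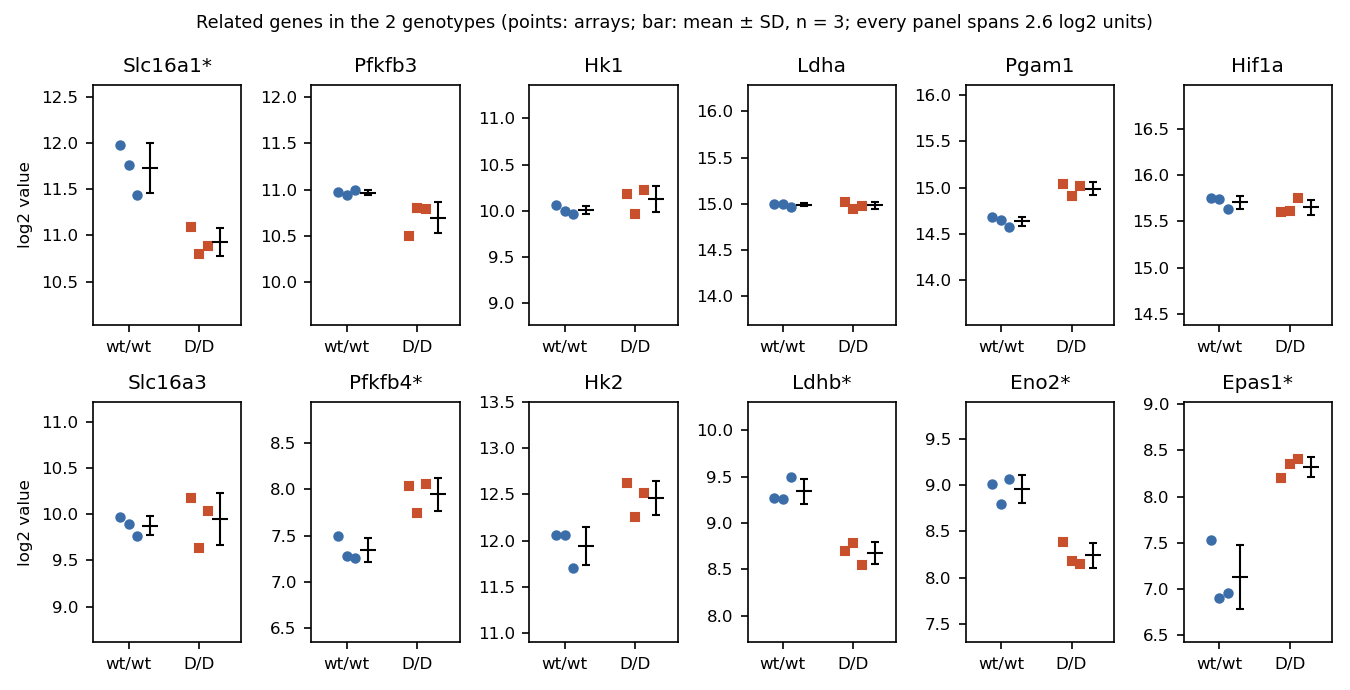
Log2 values of single arrays for related genes, with relatives above each other except for Pgam1 and Eno2, which are consecutive enzymes. Circles are LFBwt/wt and squares LFBD/D, bars give the mean and SD of 3 arrays, asterisks mark genes that passed, and axes have different origins with the same span, so that only differences within a panel can be read. Ldha is level while Ldhb falls, and Hif1a is level while Epas1 rises.

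Within a genotype the members tended to move together. In LFBwt/wt, replicate 3 gave the lowest value of its group for 22 of 32 members (68.8%), against 43.0% of the named genes at or above the median cluster. In LFBD/D, replicate 2 was the lowest for 24 of 32 (75.0%), against 35.2%. The median deviation from the group mean was -0.08 for LFBwt/wt replicate 3 and -0.11 for LFBD/D replicate 2, and 0.06 for LFBwt/wt replicate 1 and 0.08 for LFBD/D replicate 3. Over all named genes at or above the median cluster these deviations were within 0.01 of 0. Such a shared shift between arrays of a genotype was small beside the changes of Epas1, Slc16a1, Eno2 and Ldhb. It was of the size of many other differences in the set.

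**Figure D3:**
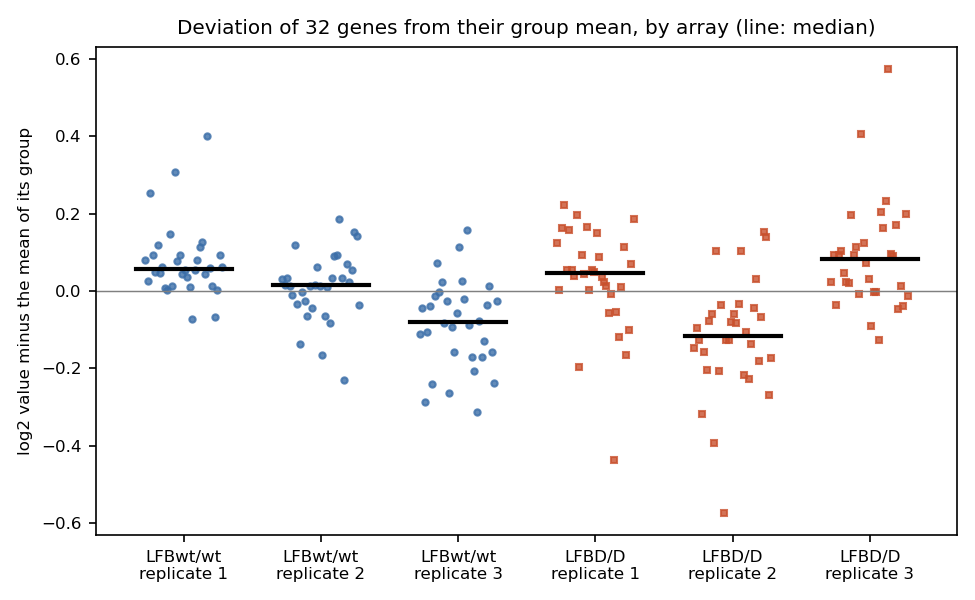
Deviation of the log2 value of each of 32 genes from the mean of its own group, by array, with circles for LFBwt/wt, squares for LFBD/D and the median as a line. LFBwt/wt replicate 3 (median -0.08) and LFBD/D replicate 2 (median -0.11) lie lowest.

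Other genes of the same pathways were read from 5 further lists. Among 25 other glycolytic isoenzymes and regulators, 4 were higher and 0 lower in LFBD/D, against the backgrounds of 3.88% and 2.94%. Hk3, the hexokinase known from myeloid cells, had 7.01, 6.78 and 6.89 in LFBwt/wt and 10.05, 9.06 and 9.16 in LFBD/D, a rise of 2.53 ± 0.24 (5.768-fold, adjusted p = 0.0008668). Slc16a7 (MCT2), a monocarboxylate carrier, rose by 0.93, and the sugar carriers Slc2a6 and Slc2a9 rose by 0.64 and 0.59. The part of the leukocytes described above in these values was not tested.

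Of 12 genes for the entry of pyruvate into mitochondria, 2 were lower and 0 higher. These were 16.7% of the list, against 11.2% of the named genes at or above the median cluster in either direction. Pcx, pyruvate carboxylase, which feeds pyruvate into the citric acid cycle as oxaloacetate, gave 7.75, 7.61 and 7.69 against 6.92, 6.91 and 6.84, and fell by 0.79 ± 0.06 (1.734-fold, adjusted p = 0.0003617). The kinase Pdk2 fell by 0.59 (adjusted p = 0.0254). In the pentose phosphate pathway, which makes NADPH and ribose from glucose phosphate, 1 of 6 genes was higher and 1 lower (33.3%, against the same 11.2%). Taldo1, transaldolase, rose by 0.65 ± 0.09 (adjusted p = 0.004252). H6pd, the dehydrogenase of the endoplasmic reticulum, gave 14.99, 14.95 and 14.95 against 14.35, 14.30 and 14.13, and fell by 0.71 ± 0.07 (adjusted p = 0.0009232). Of the others, 3 had an adjusted p of at most 0.05 below 1.5-fold, all higher. On the adjusted p alone 83.3% of this short list passed, against 28.9% of the named genes at or above the median cluster.

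Of 10 further genes of oxygen sensing, 1 passed (10.0%, against 6.83% of all named genes and 11.2% of those at or above the median cluster). Arnt2, a partner of the HIF alpha subunits in neurons, fell by 0.69 ± 0.08 (adjusted p = 0.001696). Arnt, the general partner, singled out after its values were seen, had 11.01, 11.05 and 11.04 against 10.43, 10.66 and 10.47, a difference of -0.51 ± 0.07 (adjusted p = 0.004015) at 1.426-fold. Of 29 other known HIF targets, 3 were higher (10.3%, against 3.88% of all named genes) and 5 lower (17.2%, against 2.94%), with a median log2 difference of 0.00. In either direction 27.6% passed, against 11.2% of the named genes at or above the median cluster. Bhlhe41, a circadian repressor, had 8.76, 8.45 and 8.31 against 10.50, 9.87 and 10.35 and rose by 1.74 ± 0.18 (3.332-fold, adjusted p = 0.001094). Hmox1, which breaks down haem, rose by 1.04 ± 0.15 (2.053-fold, adjusted p = 0.004534).

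Plod2, which hydroxylates lysines of collagen, gave 15.32, 15.32 and 15.14 against 14.39, 14.14 and 14.53, and fell by 0.91 ± 0.11 (1.874-fold, adjusted p = 0.001978). The lipoprotein receptor gene Vldlr fell by 0.84 ± 0.11 (adjusted p = 0.002946). The remaining 4 that passed, named after their values were seen, were Ddit4, an inhibitor of mTORC1 signalling (-0.82), Stc2, a secreted glycoprotein (-0.75), P4ha2, a collagen prolyl hydroxylase subunit (-0.69), and Hilpda, a protein of lipid droplets (0.71). Some genes of this list are known as ATF4 targets as well as HIF targets, and their directions were not counted apart. Binding of ATF4 at these genes was not tested.

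**Figure D4:**
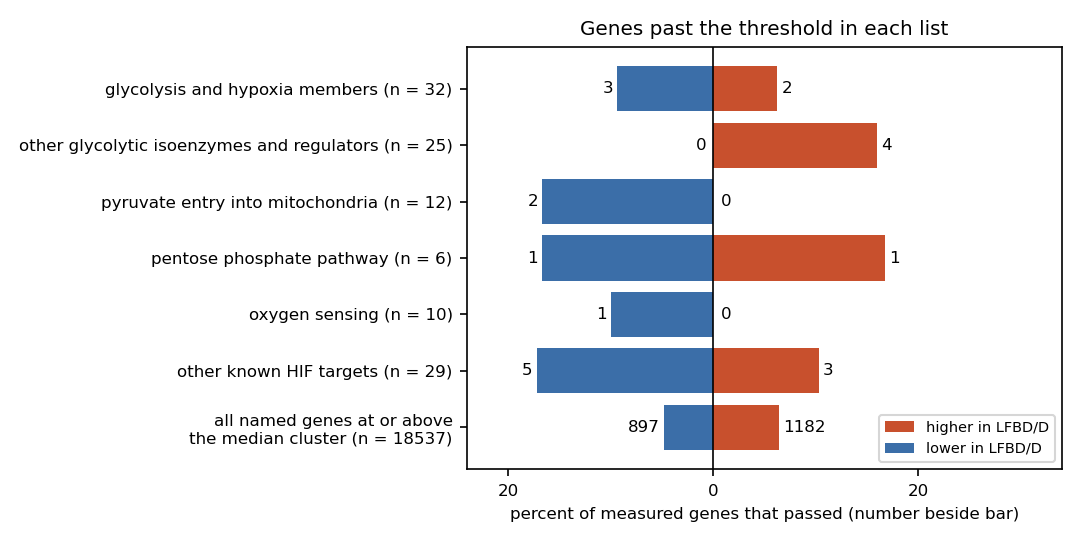
Percent of the measured genes of each list that passed as higher (right) or lower (left) in LFBD/D, with the number of genes beside each bar and, in the last row, all named genes at or above the median cluster. The members had 2 higher and 3 lower, and in the list of other HIF targets 3 were higher and 5 lower.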

How the data were processed

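The authors deposited log2 values per transcript cluster, which they obtained with RMA (background correction, quantile normalisation and summary of probes) under default settings of the Transcriptome Analysis Console. Normalising all arrays to 1 distribution hides any shift in the RNA content of whole cells. The highest value was 18.88, and 458 to 527 clusters per array were above 16, so folds hold on the deposited scale only, and RNA amounts of different genes cannot be compared. Levels served to pick the brightest cluster of a gene, to place it against the median cluster or a value of 16, and to form the summed marker levels. A summed level is the log2 of the added unlogged values of a marker list, so the brightest markers weigh most. The number of arrays, 3 per genotype, limits the precision.

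Clusters were named from the platform annotation, with symbols updated through RefSeq (GRCm38.p6). Of 65956 clusters 31292 named 1 gene, 1522 several and 33142 none. Genotypes were compared with limma 3.58.1 (lmFit and eBayes, no covariates) in R 4.3.3, with Benjamini-Hochberg adjustment across the whole array. Standard errors are moderated, and each SD describes the replicates of 1 genotype. The fold threshold of 1.5 and the adjusted p of 0.05 are those of the study's methods. Correlations between arrays were 0.9970 to 0.9984 within and 0.9882 to 0.9925 between genotypes. On simulated data with 200 of 65956 clusters changed, an adjusted p of at most 0.05 recovered 51.4% of 1.5-fold, 83% of 2-fold and 97.3% of 4-fold changes, with 4 false calls. The fold threshold was not applied there, so recovery under both thresholds was not measured. Fewer clusters were changed there than passed in the data, and they were drawn at random from all clusters, dim ones included. These rates therefore do not describe the members.

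All 35 members were to be named, with up to 4 genes per pathway list that passed with the largest change, and Atf4. The members and lists were chosen with earlier results of these data known. Lists were described by counts and medians, and groups were taken from the genotype labels. Alternatives covered the test, the variance model, a filter on dim clusters, normalisation, array weights, the replicate number as a block, left-out arrays and the mean of a gene's clusters. Sequences were read from a table of RefSeq promoter windows.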

Additional observations from a re-analysis of the deposited data

How the results depend on the processing

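Over all clusters 1504 were higher and 1695 lower in LFBD/D. Student's t-test gave 844 and 803, with 0 members higher, 0 members lower and 8 genes of the pathway lists in place of 17. Treat against a fold of 1.5 gave 501 and 386, with 0 and 0 members and 2 list genes. The t-test estimates each variance from the 6 arrays alone, and treat asks for a fold beyond 1.5, while Eno2, Ldhb, Pfkfb4 and Slc16a1 lay between 1.519-fold and 1.745-fold. Quantile normalisation repeated over clusters with 1 gene left 1076 lower clusters, tested fewer clusters, and left 1 member higher, Pfkfb4 being at 0.54. Under that setting Pfkp became -0.04 and Tpi1 -0.01, and with arrays centred on the median Ldha became 0.01, all of them unpassed values near 0. The 9 separated pairs of related genes were again 9 under the repeated quantile normalisation, an alternative chosen after seeing the data.

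Leaving out each array in turn gave 1 to 3 higher members, 3 lower members every time, and 13 to 17 list genes. Pfkfb4 was lost in 4 of these fits and Hk2 gained in 1. The differences of 9 members that did not pass changed sign in at least 1 of them, with ranges of Ldha -0.02 to 0.01, Ero1a -0.18 to 0.07, Slc16a3 -0.04 to 0.23, Pfkp -0.08 to 0.22, Egln3 -0.41 to 0.10, Ankrd37 -0.00 to 0.08, Pfkl -0.05 to 0.01, Pkm -0.07 to 0.01 and Pdk1 -0.19 to 0.03.

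Deviations of arrays with the same replicate number correlated at -0.0417, -0.0084 and -0.2219, and those with different numbers at -0.1425 to 0.1908. So few arrays, 3 per genotype, cannot show whether arrays with the same number were prepared together. With the replicate number as a block, 1459 clusters were higher and 1601 lower, 2 members higher and 3 lower, and 17 list genes passed.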

Other observations

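Eno3, the muscle enolase, is singled out here after its values were seen. Its log2 values were 10.38, 10.32 and 10.65 in LFBwt/wt and 9.69, 8.78 and 10.54 in LFBD/D. The difference of -0.78 ± 0.39 (s.e.) was close in size to the -0.80 of Slc16a1, but the LFBD/D arrays spread with an SD of 0.88, the groups overlapped, and the adjusted p of limma was 0.2786. Vegfa, the vascular growth factor and a HIF target, also named after its values were seen, had 15.21, 15.05 and 15.18 against 14.93, 14.75 and 14.78, a difference of -0.32 ± 0.07 (adjusted p = 0.02888) that was below 1.5-fold.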
